A study of Mus musculus with 14 samples.

Results

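The aryl hydrocarbon receptor (AhR) pathway was examined in newborn mouse islets through 10 genes chosen by name: the receptor Ahr, its partner Arnt, the repressor Ahrr, the AhR-regulated enzyme genes Cyp1a1, Cyp1b1, Tiparp, Nqo1, Ugt1a6a and Ugt1a7c, and Lrat of retinoid metabolism. The table of read counts listed 54532 gene identifiers, and all 10 genes were among the 18732 that had enough counts to be tested. Pancreatic islets came from C57BL/6JRj mice at postnatal day 0 (P0). They were kept for 1 day with 10 µM adjudin, a small molecule of the indazole class once developed for contraception in males, or with its solvent DMSO. In both treatments the medium contained 11 mM glucose. Each treatment had 7 libraries of RNA from whole islets, and an Adjudin and a DMSO library that carried the same replicate number came from 1 batch and form a pair. Islets of several pups, used regardless of sex by the study's methods, made up a sample, and such islets hold endocrine cells together with vessels, stroma and immune cells. The comparison shows how transcripts of this pathway stood after exposure to adjudin.

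AhR is a transcription factor that waits in the cytoplasm in a complex with the chaperone Hsp90 and p23. When a ligand such as a dioxin, a planar aromatic compound or a tryptophan metabolite binds, AhR enters the nucleus, pairs with ARNT and binds DNA at xenobiotic response elements, whose core letters are GCGTG. Cyp1a1 and Cyp1b1, cytochrome P450 enzymes that oxidise foreign compounds, are its classical targets, and Cyp1a1 is the transcript most used as a readout of AhR activity. AHRR and TIPARP are made in response to AhR and limit it, and Nqo1 and the Ugt1a genes encode the enzymes that carry oxidised products onward.

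Total counts per library ranged from 26475749 to 36900026 in 13 libraries and reached 108865228 in DMSO replicate 7, so that 1 count was worth 0.00967 to 0.0376 CPM, the usual count scaled to a common library size, here with trimmed means of M-values (TMM). All CPM values below are scaled in this way. A pair and a single library stood apart in their cell type markers. The summed level of 10 beta cell markers was 1306 CPM in Adjudin replicate 5 and 26.6 CPM in DMSO replicate 5, against medians of 9573 CPM in Adjudin and 9763 CPM in DMSO libraries. The 6 hepatocyte markers summed to 644 CPM in Adjudin replicate 3, with a median of 3.39 CPM in Adjudin and 2.83 CPM in DMSO libraries. The counts and Cyp1a1 are therefore also given without replicates 3 and 5, a choice made after these values were seen.

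Cyp1a1 (ENSMUSG00000032315, chr9:57687928-57703824 in GRCm38) rose 5.00-fold with adjudin by the fitted model, and it was the only one of the 10 genes to pass the test over all genes. The Adjudin libraries held 21.4, 19.0, 25.9, 8.92, 6.90, 18.6 and 20.9 CPM in replicates 1 to 7, against 5.79, 2.46, 3.08, 2.96, 3.91, 4.23 and 2.03 CPM in the DMSO libraries. Even the lowest Adjudin library, replicate 5, lay above the highest DMSO library, replicate 1, so the groups did not overlap. The mean was 17.4 ± 6.92 CPM in Adjudin and 3.49 ± 1.27 CPM in DMSO libraries (SD, n = 7 each). The log2 fold change was 2.32 ± 0.31 (SE), and the quasi-likelihood test of edgeR gave a Benjamini-Hochberg adjusted p of 0.0275. Of all genes tested, 0.00534% were called higher by this rule, which is Cyp1a1 alone, and 0 genes were called lower (190 at an unadjusted p under 0.05, 0 by DESeq2 without the replicate block and 10 by DESeq2 with it). Complete separation with every Adjudin library above every DMSO library was found for 0.0160% of the genes tested, and for Cyp1a1 alone among the 10. In bulk islets, more cells that express a gene and more RNA per cell cannot be told apart.

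The size of the Cyp1a1 difference varied between pairs. It was 1.88, 2.92, 3.05, 1.57, 0.81, 2.13 and 3.33 in log2 CPM for pairs 1 to 7, and thus positive in 7 of 7 pairs. Pair 5, which had few beta cell transcripts in both libraries, showed the smallest difference, and pair 7 the largest. Replicates 4 and 5 were set apart within the Adjudin group, since the other 5 libraries held at least 18.6 CPM.

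**Figure D1:**
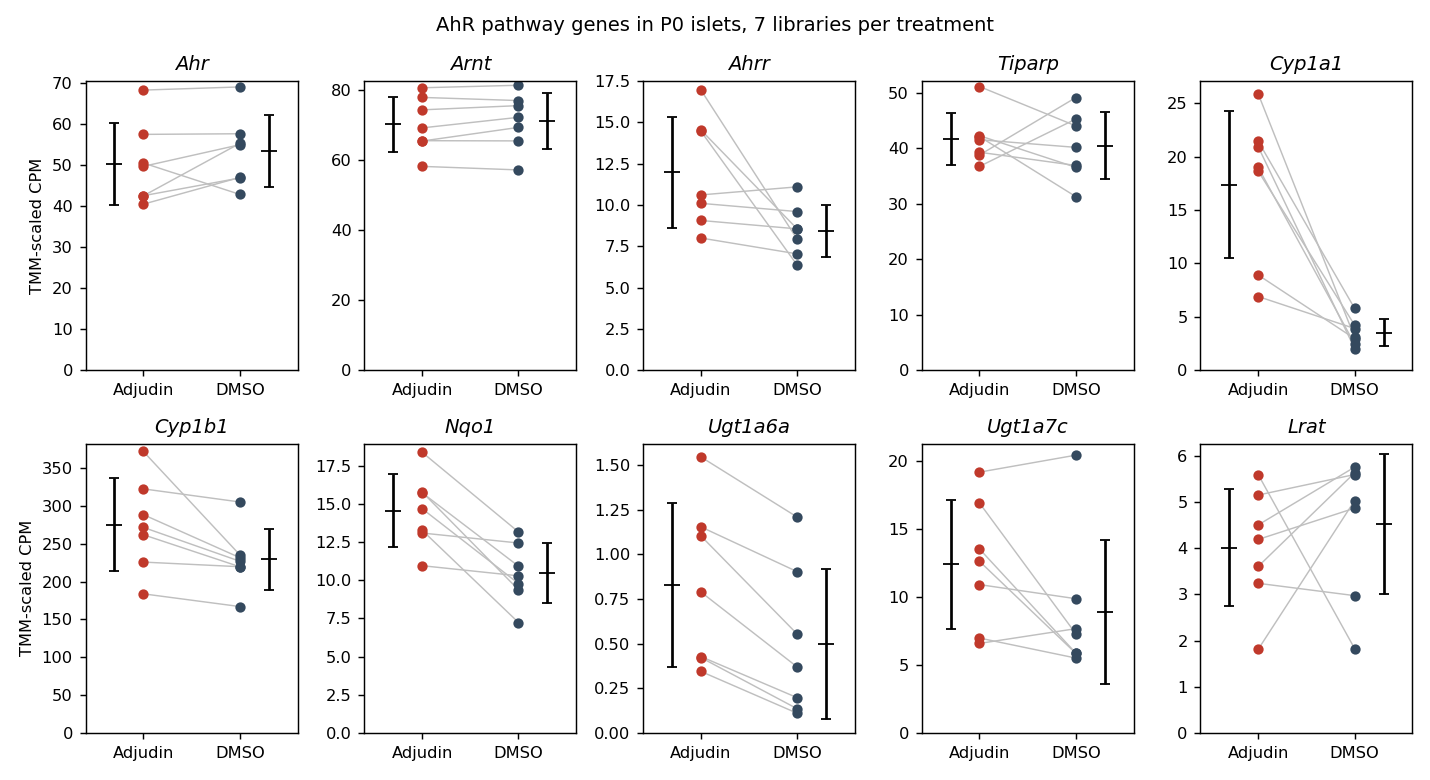
Levels of the 10 AhR pathway genes in TMM-scaled CPM (y axis, linear and starting at 0) in each of the 7 Adjudin libraries (red, left) and 7 DMSO libraries (dark blue, right). Grey lines join the libraries of a pair, and black bars give the mean ± SD. Adjudin and DMSO points are separated for Cyp1a1, at 6.90 to 25.9 CPM in Adjudin and 2.03 to 5.79 CPM in DMSO libraries, and overlap for the other 9 genes.

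The Cyp1a1 call was sensitive to the design and to single libraries, whereas its direction and size were not. With the replicate number as a block, edgeR returned 2.27 ± 0.31 on the log2 scale (adjusted p 0.321). DESeq2 called it without the block (adjusted p 6.12e-11) and with it (adjusted p 1.92e-12), and limma-voom did neither (adjusted p 0.149 and 0.193). Removal of a single DMSO library gave edgeR adjusted p values of 0.0199 for replicate 1 and of 0.121, 0.0602, 0.125, 0.0862, 0.0815 and 0.0818 for replicates 2 to 7. Removal of a single Adjudin library gave 0.0131 and 0.00332 for replicates 4 and 5, the lowest in Cyp1a1, and 0.0919, 0.0632, 0.0699, 0.0861 and 0.0922 for replicates 1, 2, 3, 6 and 7. Among the 7 pairs, the edgeR call was kept only without pair 5 (adjusted p 0.0153), and the other 6 gave 0.0665, 0.258, 0.153, 0.0638, 0.240 and 0.259. Without replicates 3 and 5 together, the log2 fold change was 2.37 (edgeR, adjusted p 0.215). Over the 21 removals of a library or a pair it stayed between 2.18 and 2.49.

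The promoters were inspected for the letters to which AhR and ARNT bind. RefSeq sequences on GRCm38.p6, from 250 bases before to 50 bases after the start of the gene, were at hand for 9 of the 10 genes, and Ahr was not analysed here. The core GCGTG, searched on both strands, occurred in 6 of these 9 promoters (Arnt, Ahrr, Tiparp, Cyp1a1, Cyp1b1 and Lrat), and in 32.4% of all 32851 promoters of this length. Windows of 29 bases are shown for both cytochrome P450 genes and for Ahrr, which had 3 matches, with the core or its reverse complement CACGC in capitals and each sequence written in the direction of its gene.
Cyp1a1, core at position -54, chr9:57697547-57697575, plus strand: tcagataaggagGCGTGgccaacagacac
Cyp1b1, core on the opposite strand at position -76, chr17:79715121-79715149, minus strand: cgtcccgcccctCACGCcccaccccctaa
Ahrr, core at position -107, chr13:74292422-74292450, minus strand: tattgaaagggcGCGTGgcaggcagggac
Ahrr, core at position -82, chr13:74292397-74292425, minus strand: ggacaaggatgtGCGTGcgccctctgccg
Ahrr, core at position -27, chr13:74292342-74292370, minus strand: gcggggcggctcGCGTGctggggtggggc
The window at -27 of Ahrr also held TNGCGTG, a longer form of the element that contains the core. It occurred in 1 of the 9 promoters and in 5.07% of all promoters. The antioxidant element TGACNNNGC, to which NRF2 binds, occurred in 1 of the 9 promoters (Arnt) and in 12.4% of all promoters. Promoters with a core included Cyp1a1, which rose, and Arnt, whose level is given below and did not pass the test, while Nqo1 and both Ugt1a genes had no core in this window. The window of Cyp1a1 lay inside the span of this gene in the count table, which begins farther upstream. These matches describe letters within 300 bases and not binding. The promoter sequence of Cyp1a1 held no TNGCGTG, and elements farther upstream were not searched.

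For the receptor and its partner, the treatments differed by less than the spread between libraries. Ahr (ENSMUSG00000019256, chr12:35497974-35535038 in GRCm38) ranged from 40.5 to 68.3 CPM with a median of 49.7 CPM in Adjudin libraries, and from 42.9 to 69.1 CPM with a median of 55.0 CPM in DMSO libraries. The ranges overlapped, although 3 Adjudin libraries lay below every DMSO library and Adjudin was the higher library in only 1 of 7 pairs. The fitted log2 fold change of Ahr was −0.09 ± 0.13, with an edgeR unadjusted p of 0.507, and the replicate block narrowed its SE to 0.07 (unadjusted p of 0.224). Arnt (ENSMUSG00000015522, chr3:95434388-95497240) ranged from 58.2 to 80.6 CPM with a median of 69.1 CPM in Adjudin libraries and from 57.1 to 81.3 CPM with a median of 72.2 CPM in DMSO libraries. Within pairs, Arnt was the steadiest of the 10 genes, with a mean difference of −0.02 ± 0.04 (SD, 7 pairs) in log2 CPM. Its log2 fold change was −0.02 ± 0.09, and its sign turned positive without DMSO replicate 3 or 6 or Adjudin replicate 7.

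Of the genes whose products restrain AhR, Ahrr had a positive log2 fold change that did not pass and Tiparp one near 0. Ahrr (ENSMUSG00000021575, chr13:74211118-74292331) encodes a repressor that competes with AhR for ARNT. It ranged from 8.004 to 17.0 CPM with a median of 10.6 CPM in Adjudin libraries, and from 6.36 to 11.1 CPM with a median of 8.55 CPM in DMSO libraries. Adjudin replicates 3, 6 and 7 lay above every DMSO library and the other 4 lay within the DMSO range. The within-pair differences showed the same division, with 1.18, 0.76 and 1.09 in log2 CPM for pairs 3, 6 and 7 and −0.06 to 0.18 for the rest. Ahrr had a log2 fold change of 0.50 ± 0.18 with an unadjusted p of 0.0126, ranked 67 of all genes, and did not pass after adjustment (edgeR, adjusted p 0.9998). Tiparp (ENSMUSG00000034640, chr3:65528410-65555518) encodes an ADP-ribosyltransferase that modifies AhR and dampens its activity. It ranged from 36.8 to 51.2 CPM with a median of 41.6 CPM in Adjudin libraries and from 31.3 to 49.2 CPM with a median of 40.2 CPM in DMSO libraries. The Tiparp ranges overlapped, with a log2 fold change of 0.04 ± 0.10 that turned negative without DMSO replicate 1, Adjudin replicate 4 or pair 1.

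Cyp1b1 (ENSMUSG00000024087, chr17:79706953-79715041) was by far the most abundant of the 10 transcripts per length, and its difference was small but had the same sign in each pair. It ranged from 184 to 372 CPM with a median of 272 CPM in Adjudin libraries, and from 167 to 305 CPM with a median of 227 CPM in DMSO libraries. The group ranges overlapped widely. Within pairs it was higher with adjudin in 7 of 7, by 0.66 in log2 CPM in pair 1 and by 0.04 to 0.32 in the other 6. The log2 fold change was 0.26 ± 0.15 (edgeR, unadjusted p = 0.0935). With the replicate block it was 0.25 ± 0.07 with an unadjusted p of 0.00799 and did not pass after adjustment (edgeR, adjusted p 0.745).

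The enzymes that act after the cytochrome P450s included Nqo1, a quinone reductase regulated by both AhR and NRF2. Nqo1 (ENSMUSG00000003849) lay on mouse chromosome 8 at 107388225 to 107403206 and ranged from 11.0 to 18.4 CPM with a median of 14.7 CPM in Adjudin libraries, and from 7.23 to 13.2 CPM with a median of 10.3 CPM in DMSO libraries. 5 of the 7 Adjudin libraries lay above every DMSO library and the other 2 lay within the DMSO range, and Adjudin was higher in 7 of 7 pairs, by 0.07 to 0.87 in log2 CPM. By edgeR Nqo1 differed by 0.48 ± 0.14 on the log2 scale with an unadjusted p of 0.00373, which ranked it 16 of all genes, and did not pass after adjustment (edgeR, adjusted p 0.9998). DESeq2 with the replicate block called Nqo1 (adjusted p 0.0313).

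The 2 Ugt1a genes encode glucuronosyltransferases, which attach glucuronic acid to oxidised compounds, and they are the most uncertain of the 10 by counting. The Ugt1a genes have first exons of their own and share the exons that follow, so that 50.3% of the exonic bases of Ugt1a6a and 54.6% of those of Ugt1a7c also belong to other genes of the cluster on the same strand in GENCODE M21. How reads in shared exons were assigned is not given in the sources used here. Ugt1a6a (ENSMUSG00000054545, chr1:88134809-88218997) held 10 to 50 counts in Adjudin libraries and 4 to 125 counts in DMSO libraries, the highest count being in the deepest library. Its level was 0.827 ± 0.458 CPM in Adjudin and 0.497 ± 0.421 CPM in DMSO libraries (SD, n = 7 each), and Adjudin was higher in 7 of 7 pairs although the groups overlapped. Ugt1a6a had a log2 fold change of 0.69 ± 0.52 (edgeR, unadjusted p = 0.205), and of 0.93 ± 0.26 with the replicate block (unadjusted p = 0.0057, adjusted p 0.729). Ugt1a7c (ENSMUSG00000090124, chr1:88095062-88220002) ranged from 6.59 to 19.2 CPM with a median of 12.6 CPM in Adjudin libraries and from 5.51 to 20.4 CPM with a median of 7.30 CPM in DMSO libraries. Adjudin was higher in 5 of 7 pairs, and differences of 1.21, 1.10 and 1.20 in log2 CPM in pairs 3, 4 and 7 stood beside −0.22 to 0.34 in the others. For Ugt1a7c the log2 fold change was 0.47 ± 0.32 (edgeR, unadjusted p = 0.157), and 0.53 ± 0.21 with the replicate block (unadjusted p = 0.0301), which did not pass after adjustment.

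Lrat (ENSMUSG00000028003, chr3:82892579-82903973) encodes the enzyme that esterifies retinol for storage. It ranged from 1.81 to 5.60 CPM with a median of 4.19 CPM in Adjudin libraries and from 1.83 to 5.76 CPM with a median of 5.03 CPM in DMSO libraries. Low values occurred in both groups, and within pairs the difference ran from −1.45 in log2 CPM in pair 4 to 1.59 in pair 7. For Lrat the log2 fold change was −0.17 ± 0.28 (edgeR, unadjusted p = 0.551).

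**Figure D2:**
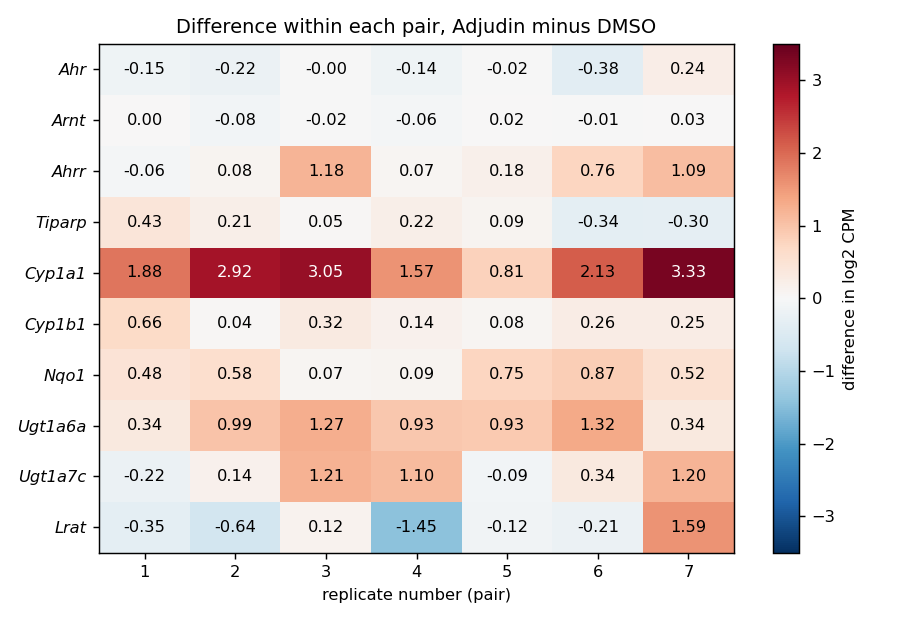
Difference in log2 CPM, Adjudin minus DMSO, within each of the 7 pairs (columns, replicate number) for the 10 genes (rows), with the value printed in each cell and red for higher with adjudin. Cyp1a1, Cyp1b1, Nqo1 and Ugt1a6a are positive in 7 of 7 pairs, and Cyp1a1 runs from 0.81 in pair 5 to 3.33 in pair 7.

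Counted over the 10 genes, 7 lay above 0 on the log2 scale and the median was 0.37, while over all genes tested 45.3% were positive and the median was −0.01. At an unadjusted p under 0.05 by edgeR, 3 of the 10 were higher with adjudin (Cyp1a1, Nqo1 and Ahrr) and 0 were lower, where 1.25% of all genes were higher and 1.01% lower (235 and 190 genes, or 280 and 134 with scaling by library totals). Without replicates 3 and 5 the 3 became 4, with Ugt1a7c added. With the replicate block these counts were 6 higher (Ahrr, Cyp1a1, Cyp1b1, Nqo1, Ugt1a6a and Ugt1a7c) and 0 lower, beside 3.25% higher and 2.38% lower of all genes. Without replicates 3 and 5 these 6 became 4, since Ahrr and Ugt1a7c had unadjusted p values of 0.0790 and 0.0570 by edgeR with the block. None of the 6 passed after adjustment by edgeR, which with the block called 0 of all genes. By DESeq2 with the block 2 of the 10 were called, namely Cyp1a1 and Nqo1, where 0.507% of all genes were called higher and 0.0534% lower. Adjudin was higher in 7 of 7 pairs for 4 of the 10 genes (Cyp1a1, Cyp1b1, Nqo1 and Ugt1a6a), against 0.945% of all genes. With Ahrr, 5 of the 10 were higher in at least 6 pairs, against 6.23% of all genes. Such steady differences were not particular to this list, since 6 of the 10 beta cell markers were also higher in 7 of 7 pairs. The other beta cell markers were mixed, with Slc30a8 higher in 6, Ins1 in 4, Ucn3 in 3 and Ins2 in 2 of 7 pairs. The sum of the 10 markers was higher in 5 of 7 pairs. The 10 AhR pathway genes were picked as members of a pathway of which Cyp1a1 was already known to stand out in these libraries. Both Ugt1a genes share exons with each other.

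**Figure D3:**
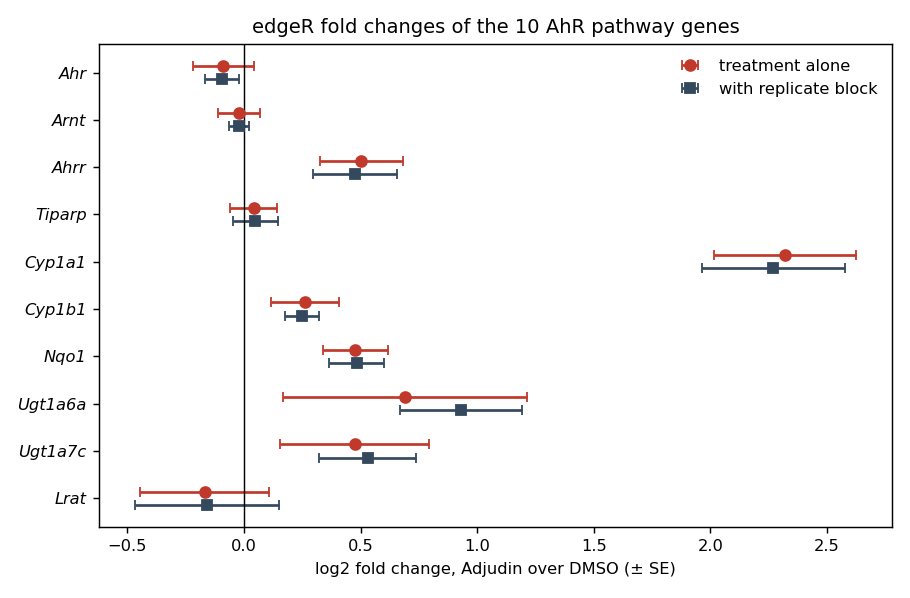
Log2 fold changes, Adjudin over DMSO, with bars of 1 SE, for the 10 genes by edgeR with treatment alone (red circles) and with the replicate block (dark squares). Cyp1a1 lies at 2.32 and 2.27, while the other 9 genes lie between −0.17 and 0.93.

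Per length, Cyp1b1 stood far above the other genes, with a mean of 53.7 CPM per kilobase in Adjudin and 44.8 CPM per kilobase in DMSO libraries (n = 7 each). In DMSO libraries Tiparp, Arnt and Ahr followed at 9.30, 8.88 and 8.66 CPM per kilobase and did not differ beyond their spread, and Nqo1 stood at 6.74. Then came Ugt1a7c at 2.12, Cyp1a1 at 1.25, Ahrr at 0.895, Lrat at 0.846 and Ugt1a6a at 0.115 CPM per kilobase, and Ahrr and Lrat did not differ beyond their spread. In Adjudin libraries Cyp1a1 reached 6.24 CPM per kilobase, above Ugt1a7c at 2.94 and below Ahr at 8.15, Arnt at 8.76, Nqo1 at 9.38 and Tiparp at 9.57. The SD was 2.48 for Cyp1a1 and 1.61 for Ahr in these libraries, so Cyp1a1 and Ahr did not differ beyond their spread. Cyp1a1 thus remained below Cyp1b1 per length in both treatments.

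The balance between genes within a library was compared for a pair of ratios. The log2 ratio of Cyp1a1 to Cyp1b1 CPM was −4.08 ± 0.71 in Adjudin and −6.07 ± 0.48 in DMSO libraries (SD, n = 7 each). The difference was 1.99, with an exact two-sided permutation p of 0.00117 and 0.00233 after Benjamini-Hochberg adjustment over 2 ratios. Cyp1a1 was already known to stand out in these libraries, so the p-values of this ratio restate the Cyp1a1 difference and are no separate support. The ratio was higher in 7 of 7 pairs (exact two-sided sign flip p = 0.0156, the smallest that 7 pairs allow), and only Adjudin replicate 5, at −5.54, lay within the DMSO range of −6.72 to −5.33. The log2 ratio of Ahrr to Ahr was −2.09 ± 0.51 in Adjudin and −2.66 ± 0.41 in DMSO libraries (SD, n = 7 each). This difference of 0.57 had an exact two-sided permutation p of 0.0449, also 0.0449 after adjustment over both ratios, and was positive in 7 of 7 pairs (exact sign flip p = 0.0156). The adjustment could not change it, since it was the larger of the 2 p-values. This ratio largely restates the Ahrr difference, which did not pass over all genes, and is no separate support. The permutation, unlike the sign flip, did not use the pairing of libraries. By permutation the Ahrr to Ahr difference lost the threshold without DMSO replicate 3, 5 or 6 (exact permutation p 0.0897, 0.0903 and 0.0659) and without Adjudin replicate 1, 2, 3, 4, 6 or 7 (0.0548, 0.0577, 0.0664, 0.0624, 0.0874 and 0.0874). The same held without pair 2, 3, 4, 6 or 7 (0.0628, 0.126, 0.0563, 0.115 and 0.0887).

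A further 36 genes of the pathway, listed by role, were examined, and 26 of them could be tested. By edgeR 0 of the 26 passed after adjustment, 2 were higher and 0 lower at the same threshold when p was left unadjusted (1.25% and 1.01% of all genes), and 13 of the fold changes were above 0 on the log2 scale, the median being 0.00. DESeq2 with the replicate block called 1, Gsta1, as higher, where it called 0.507% of all genes higher. All 12 genes of the cytoplasmic complex, the alternative partner and the coactivators were tested, with log2 fold changes from −0.20 to 0.03. The most abundant, the chaperone Hsp90ab1, stood at 1164 ± 187 CPM in Adjudin and 1153 ± 207 CPM in DMSO libraries, a log2 fold change of 0.01 ± 0.13. The coactivator Ncoa3 had the most negative value of this group, −0.20 ± 0.10, at 59.2 ± 8.51 CPM in Adjudin and 67.8 ± 8.54 CPM in DMSO libraries, with an edgeR unadjusted p of 0.0815 and of 0.0296 with the replicate block.

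Of 17 other reported AhR targets 14 were tested, and 9 of these had positive log2 fold changes. Gsta1, a glutathione transferase, ranged from 0 to 4.12 CPM with a median of 1.31 CPM in Adjudin libraries and from 0 to 0.769 CPM with a median of 0.226 CPM in DMSO libraries. Counts of Gsta1 were few, at most 120 in an Adjudin and 73 in a DMSO library, and 5 Adjudin libraries lay above every DMSO library. Its log2 fold change was 2.14 ± 0.85 (edgeR, unadjusted p = 0.0240), and DESeq2 with the replicate block gave an adjusted p of 0.00497. Il1b, an inflammatory cytokine of macrophages, ranged from 2.34 to 19.5 CPM with a median of 7.05 CPM in Adjudin and from 3.11 to 6.62 CPM with a median of 4.02 CPM in DMSO libraries, a log2 fold change of 0.97 ± 0.36 (edgeR, unadjusted p = 0.0166). Ereg, the growth factor epiregulin, had a wide spread in Adjudin libraries with 64.2 CPM in replicate 2, at a mean of 17.7 ± 20.8 CPM against 8.92 ± 6.24 CPM in DMSO libraries, and an unadjusted p of 0.100 by edgeR and 0.0478 with the replicate block. Without Adjudin replicate 2 its log2 fold change was 0.16, against 0.99 with all libraries. Cyp1a2, the close relative of Cyp1a1 that AhR induces in liver, had too few counts to be tested, with 23 in Adjudin replicate 3, 4 in Adjudin replicate 5 and 0 in every other library, where a count of 0 allows up to 3 counts. None of the 7 other Ugt1a genes could be tested, and the most abundant, Ugt1a1, held 0 to 53 counts in Adjudin and 0 to 48 counts in DMSO libraries.

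**Figure D4:**
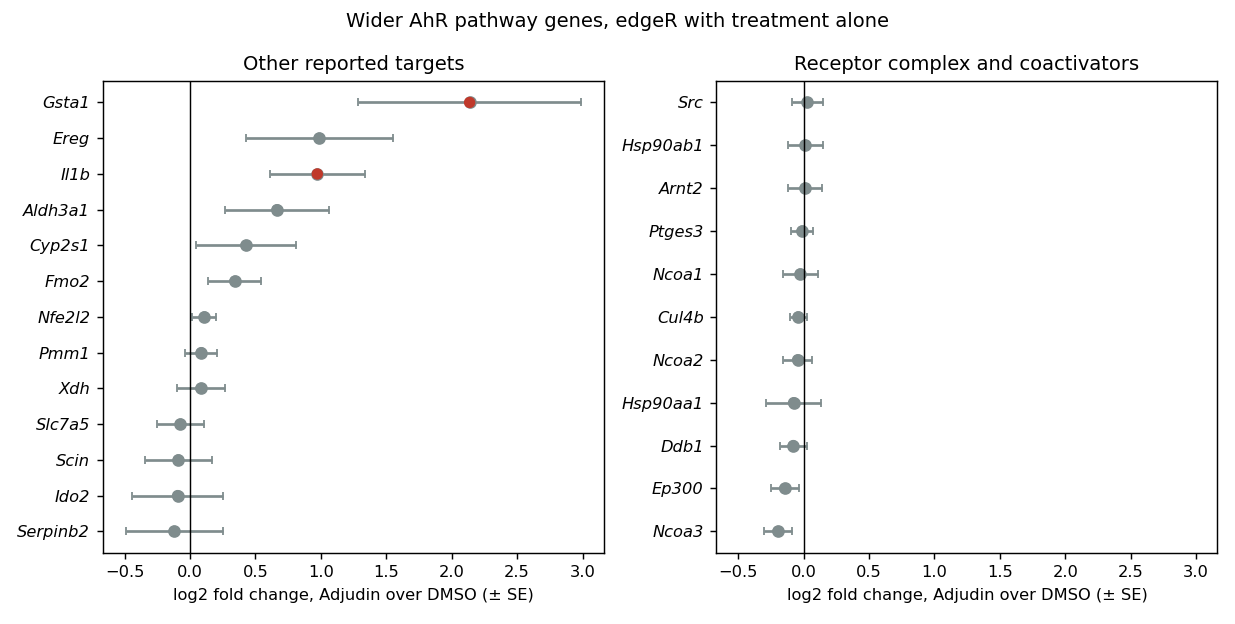
Log2 fold changes, Adjudin over DMSO, with bars of 1 SE, by edgeR with treatment alone, for 13 other reported AhR targets (left) and 11 genes of the receptor complex and its coactivators (right). Red points mark an unadjusted p under 0.05. Gsta1 and Il1b are red at 2.14 and 0.97, and the complex and coactivators lie between −0.20 and 0.03.

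Markers of other cells were set beside these results, each list with counts in at least 1 library for every gene. The 8 mesenchymal markers had the highest median sums of the 9 lists, 20363 CPM in Adjudin and 27061 CPM in DMSO libraries. They were higher with adjudin in 2 of 7 pairs. The 6 pericyte markers had medians of 1226 CPM in Adjudin and 1409 CPM in DMSO libraries and were higher in 1 of 7 pairs. The 7 endothelial markers summed to 225 to 744 CPM (median 475 CPM) in Adjudin and 196 to 747 CPM (median 514 CPM) in DMSO libraries, and were higher with adjudin in 4 of 7 pairs. After each treatment's mean was removed, log2 Cyp1a1 correlated with the endothelial sum at r = 0.70 over the 14 libraries, its highest r with any of the 9 marker lists. Among Adjudin libraries, replicate 3 held the most of both, and the part of endothelial cells in the Cyp1a1 values was not tested. The hepatocyte markers also peaked in Adjudin replicate 3, where Alb had 8605 counts and Cyp1a2 most of its counts. In the other 6 Adjudin libraries hepatocyte markers summed to 1.84 to 6.66 CPM, and Cyp1a1 was 6.90 to 21.4 CPM. The part of hepatocytes in the Cyp1a1 values was not tested. The 7 acinar markers summed to 17.9 to 231 CPM (median 84.7 CPM) in Adjudin and 1.52 to 223 CPM (median 5.63 CPM) in DMSO libraries, and the 6 ductal markers to 249.6 to 1329 CPM (median 993 CPM) in Adjudin and 233 to 1288 CPM (median 718 CPM) in DMSO libraries. Acinar markers were higher with adjudin in all pairs but pair 3, and ductal markers in all but pair 5. The 6 intestinal markers summed to 3.77 to 43.6 CPM (median 15.8 CPM) in Adjudin and 4.77 to 31.6 CPM (median 7.21 CPM) in DMSO libraries. With treatment means removed, Ugt1a7c correlated with the intestinal sum at r = 0.75 and with the ductal sum at r = 0.66, and Nqo1 with the macrophage sum at r = 0.79. These values were picked from the correlations of 10 genes with 9 lists. Others of like size were Tiparp with the macrophage sum (−0.78), Arnt with the mesenchymal sum (0.69) and Ahr with the beta cell sum (−0.66). The part of acinar, ductal, intestinal and macrophage cells in the values of Nqo1, Gsta1 and the Ugt1a genes was not tested. The 6 macrophage markers summed to 732 to 1234 CPM in Adjudin and 974 to 1620 CPM in DMSO libraries. Their sum was higher in 2 of 7 pairs, where Il1b was higher in 6 of 7 and Nqo1 in 7 of 7. Of the 6 macrophage markers, 0 had a positive log2 fold change by edgeR.

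**Figure D5:**
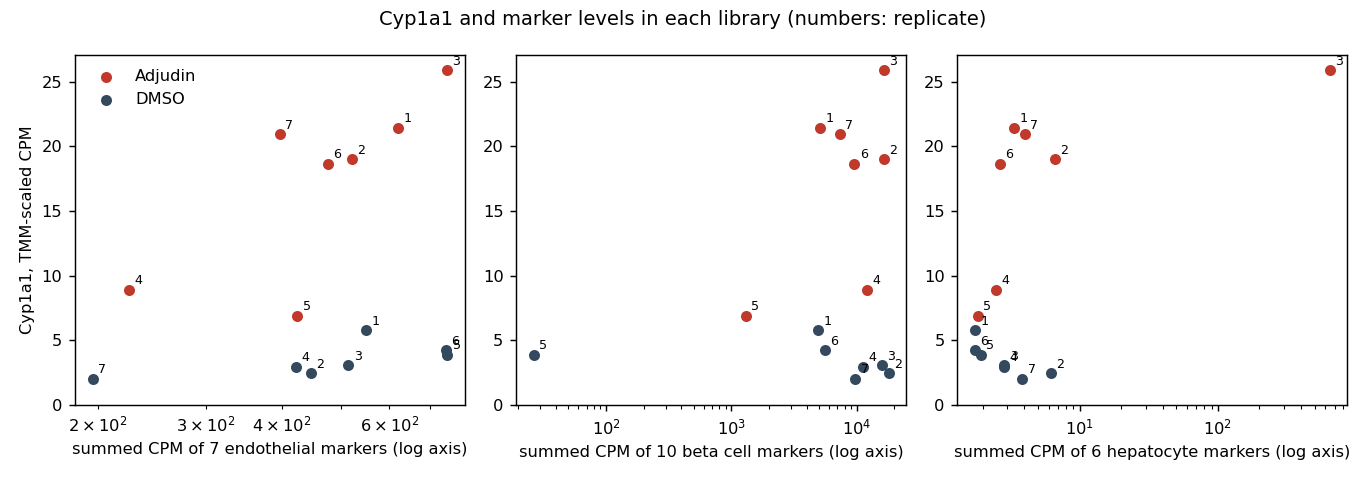
Cyp1a1 in TMM-scaled CPM (y axis) against the summed CPM of 7 endothelial, 10 beta cell and 6 hepatocyte markers (x axes, logarithmic) in each library, red for Adjudin and dark blue for DMSO, with the replicate number beside each point. All Adjudin points lie above all DMSO points on the y axis, DMSO replicate 5 stands alone at 26.6 CPM of beta cell markers and Adjudin replicate 3 at 644 CPM of hepatocyte markers.

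The genes whose log2 CPM followed each pattern most closely over the 14 libraries, by Pearson's r, are given as a description, since all points share treatment, batch and depth. Closest to Cyp1a1 were Ddit4, an inhibitor of mTORC1 induced by stress (r = 0.83), Meltf, an iron-binding transferrin relative (0.82), Ten1 (0.76), Edaradd (0.75) and Slain1 (0.75). Closest to Cyp1b1 were Fam83c (r = 0.86), Adat2 (0.84), Klhl3 (0.83), Rnd1 (0.83) and Neto2 (0.82). Closest to Ahr were Pctp, a phosphatidylcholine transfer protein (r = 0.90), the mechanosensitive channel Piezo1 (0.87), the histone methyltransferase Suv39h1 (0.85), Atp11a (0.85) and Atg2a (0.85). No gene appeared under more than 1 of the 3 patterns.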

How the data were processed

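RNA of P0 islets was sequenced in 7 Adjudin and 7 DMSO libraries. The deposited values are raw read counts per gene. By the methods and the submitters' processing notes, paired-end reads were aligned by the authors with HISAT2 2.0.5 (build GRCm38/mm10) and assigned to genes with featureCounts 1.5.0-p3. Annotation release and strand setting were not given in the sources used here. In GENCODE M21, genes on the opposite strand overlap 2.06% of the exonic bases of Ahr and 5.12% of those of Tiparp. For Ugt1a6a and Ugt1a7c the overlap is 9.14% and 9.34%. Reads in these stretches may be shared with the opposite genes or left uncounted. Chromosome, start, end and length are those of the count table.

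Genes were kept by filterByExpr (minimum count 10), scaled by TMM and compared in R 4.3.3 by the robust quasi-likelihood test of edgeR 4.0.16, with only treatment in the model and Benjamini-Hochberg adjustment over 18732 genes. SE is the fold change divided by the root of its F value, and log2 CPM used a prior count of 2. The paper's methods name DESeq2 and no design formula. The 14 libraries were relabelled in all 3432 splits for the permutation tests of ratios, whose smallest p is 0.000583. The labels do not say whether libraries of a pair came from separate animals, and p-values measure the spread between these samples.

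The labels put libraries of the same number in the same batch, so the numbers pair them. Deviations from the group means correlated with r from −0.14 to 0.45 (mean 0.25) between same-numbered libraries and with a mean of −0.04 between others. Alternatives were the replicate block, DESeq2 1.42.0 and limma-voom (limma 3.58.1), both fitted with the block and without it, other scalings, filters and prior counts, and removal of each library or pair. The removal of replicates 3 and 5 together was added later.

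The 10 genes, the other lists and the tests were chosen with earlier results of these data known. The text names all 10 genes, wider pathway genes at an unadjusted p under 0.05 with or without the block, the most abundant of each wider list, and the 5 most correlated genes for Cyp1a1, Cyp1b1 and Ahr. Cyp1a2 was named in addition, after its counts were seen. A target and a gene of the receptor complex are counted in their lists but not reported here by name. The scripts were tested on simulated counts.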

Additional observations from a re-analysis of the deposited data

Results flagged for a closer look

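A library was marked where it lay far from the rest of its treatment group, with a gap to its nearest neighbour that was a larger part of the group's range than Dixon's test allows for 7 samples. In 24 groups checked 2 were marked, and chance alone marks about 1 in 20 groups. Tiparp in Adjudin replicate 4 was 5.68 in log2 CPM (51.2 CPM), the next Adjudin library was 5.40, and the gap was 0.576 of the range. The log2 ratio of Cyp1a1 to Cyp1b1 in Adjudin replicate 5 was −5.54, the next Adjudin library was −4.36, and the gap was 0.572 of the range. The causes were not tested.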

How the results depend on the processing

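With the replicate block, as a pairing of libraries, several counts differed. Of the 10 genes, edgeR called 1 without the block and 0 with it, DESeq2 with the block 2, and limma-voom 0 with or without it. At an unadjusted p under 0.05 each tool gave 3 without the block and 6 with it. Over all genes, edgeR called 1 without the block and 0 with it, DESeq2 3 without and 105 with it, and limma-voom 0 in both. Genes at an unadjusted p under 0.05 numbered 425 without the block and 1054 with it by edgeR, 526 and 1218 by DESeq2, 477 and 1106 by limma-voom, and 2884 by edgeR with no filter on low counts. Scaling by library totals gave 280 higher and 134 lower, against 235 and 190 with TMM. Of the wider pathway genes DESeq2 with the block called 1, and at an unadjusted p under 0.05 the count of 2 became 4 with the block by each tool, 0 by limma-voom without it and 1 with a filter of 1 CPM in 7 libraries, which left out Gsta1 and Ugt1a6a.

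Removal of a library or a pair gave 0 to 1 called of the 10 genes and of all genes, 2 to 5 of the 10 and 315 to 644 of all genes at an unadjusted p under 0.05 (5 and 644 without DMSO replicate 5), 1 to 4 wider genes, and an Ahrr to Ahr difference of 0.46 to 0.73. Without replicates 3 and 5, a later choice, edgeR called 0 of the 10 and 0 of all genes with or without the block, where 4 of the 10, 883 of all genes and 5 wider genes had an unadjusted p under 0.05 with it. The log2 fold change of Arnt was 0.0037, 0.020 and 0.021 without DMSO replicate 3, DMSO replicate 6 and Adjudin replicate 7, over a range of −0.056 to 0.021. That of Tiparp was −0.011, −0.013 and −0.014 without DMSO replicate 1, Adjudin replicate 4 and pair 1, over a range of −0.014 to 0.12. That of Lrat was 0.034 by limma-voom without the block. The other 7 genes kept their sign in all alternatives, and the Cyp1a1 to Cyp1b1 difference stayed between 1.81 and 2.23. The cause of each change was not tested. Low counts limit Ugt1a6a, Gsta1 and Cyp1a2.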
